A study of Mus musculus with 5 samples.

Results

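The keratin-high barcodes of untreated 11-day mouse salivary gland organoids (mSGOs) were the 500 cell barcodes in which the transcripts of 6 genes of basal epithelium took the largest share of all unique molecular identifiers (UMIs, which count captured RNA molecules). The 6 genes were Krt14, Krt5, Krt15, Krt17, Dsg3 and Col17a1. Barcodes were eligible with at least 2000 UMIs and no more than 5% of them from mitochondrial genes, which held for 9367 of the 14266 barcodes of the 11-day library, out of 72788 in the series. The 500 members were therefore 5.34% of the eligible barcodes, and the 8867 others are called the rest. The ranking used measured values, so the levels of the 6 genes describe the choice and are no finding, and a set cut from a ranked share is a range and not a cell type.

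The 11-day mSGOs were grown from submandibular gland cells of C57BL/6 mice in Matrigel, a basement membrane gel, without irradiation. The paper's methods give the gland donors of the study as females of 8-12 weeks. The medium of every organoid library held EGF, FGF2, insulin, dexamethasone, the kinase inhibitor Y27632 and media conditioned with R-spondin1 and Wnt3a. Organoids came from 4 animals that were not kept apart in the library, and the 11-day library was made from another batch of animals and in a run of its own. The other libraries of the series, all C57BL/6 with an age label of 8-12 weeks, were 7-day mSGOs without irradiation, 7-day mSGOs given 7 Gy of photons or of protons on day 5, and non-irradiated fresh gland tissue. Each group was a single library, so there were no replicates, no difference was tested, and all intervals are 95% intervals for counting error alone.

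Keratins are the intermediate filaments of epithelial cells. Krt5 and Krt14 pair in the cells that sit on the basement membrane, Krt15 is a further keratin of that layer, and Krt17 is found in ducts, glands and injured epithelium. Dsg3 is a cadherin of the desmosomes that hold neighbouring cells together, and Col17a1 is a membrane collagen of the hemidesmosomes that hold a cell to its basement membrane. In the salivary gland the basal duct cells carry these genes, the luminal duct cells carry Krt7, Krt8 and Krt18, and myoepithelial cells combine Krt14 with smooth muscle genes such as Acta2. The paper lists Krt17 with Krt7 and Krt8 among its markers of luminal duct cells in these organoids.

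The sequences before 3 of the genes that the results turn on are printed. Krt5 and Col17a1 were used to choose the set. Krtdap, a secreted protein of differentiating keratinocytes, was outside the rule and had the second highest ratio in the members, of which 94 (18.8%) had a UMI of it. Each run holds the 250 bases before the gene start in RefSeq on GRCm38.p6, read on the strand of the gene. Krt5 lies at chr15:101712906-101713155 on the minus strand, Col17a1 at chr19:47692043-47692292 on the minus strand and Krtdap at chr7:30787655-30787904 on the plus strand. Capitals mark matches, on either strand, to the p63 decamer, to the AP-1 motif TGANTCA or to TATAAA.
Krt5: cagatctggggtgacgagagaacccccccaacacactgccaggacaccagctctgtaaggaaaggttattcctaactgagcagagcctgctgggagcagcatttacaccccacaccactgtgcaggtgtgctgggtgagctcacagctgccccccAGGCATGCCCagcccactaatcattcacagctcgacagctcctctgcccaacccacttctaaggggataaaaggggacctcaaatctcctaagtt
Col17a1: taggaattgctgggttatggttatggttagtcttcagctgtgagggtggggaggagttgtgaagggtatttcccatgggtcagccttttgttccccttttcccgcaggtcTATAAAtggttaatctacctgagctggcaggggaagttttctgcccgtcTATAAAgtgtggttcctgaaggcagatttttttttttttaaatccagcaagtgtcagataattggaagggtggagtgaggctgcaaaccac
Krtdap: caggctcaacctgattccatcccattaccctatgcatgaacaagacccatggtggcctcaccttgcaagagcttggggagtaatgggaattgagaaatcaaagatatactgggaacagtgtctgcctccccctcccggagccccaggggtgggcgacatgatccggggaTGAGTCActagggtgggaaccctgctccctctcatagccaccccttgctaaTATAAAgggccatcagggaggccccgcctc
The p63 decamer began 95 bases before the start of Krt5, and 1.63% of the 32817 RefSeq windows of this length held one. The AP-1 motif began 81 bases before the start of Krtdap, where 6.75% of windows held one, and the TATAAA motif began 30 bases before the start of Krtdap and 140 and 91 bases before that of Col17a1, where 12.4% of windows held it. No motif overlapped another. These matches describe the letters and say nothing of binding.

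The members formed the upper tail of a continuous distribution. The 6-gene share ran from 1.15% to 3.02% of UMIs in the members with a median of 1.35%, and had a median of 0.495% in the rest. The last member held 65 UMIs of the 6 genes among 5650 (1.1504%), and the first barcode outside held 32 among 2784 (1.1494%). Within 10% of that share lay 171 members on the upper side and 285 other barcodes on the lower side. The members had a median of 3582 UMIs and 1707 genes, against 3194 UMIs and 1660 genes in the rest. After every barcode had been thinned to 2000 UMIs the members had fewer genes, with a median of 1124 against 1177. Their mitochondrial share (median 2.48% against 2.64%) was close to that of the rest, and their share of Malat1, a nuclear RNA, was lower (2.70% against 3.21%). The Scrublet doublet caller marked only 2 of 10339 barcodes by its own threshold, so the 8.27% with the highest scores were taken as possible doublets, and 14 members (2.80%) and 9.26% of the rest were among them.

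**Figure D1:**
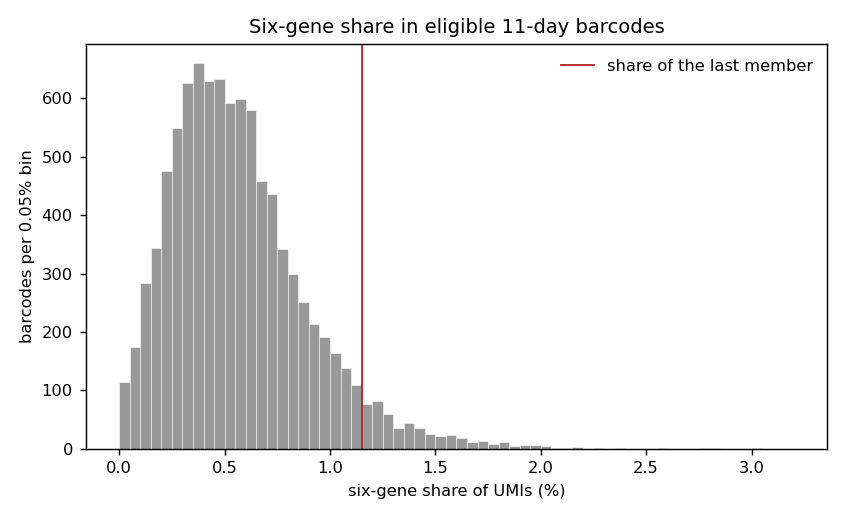
Number of eligible 11-day barcodes per bin of 0.05% of the 6-gene share of UMIs, with a line at the share of the last member (1.15%). The distribution has 1 broad peak and falls without a gap across the line.

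With few UMIs of the 6 genes per barcode (a median of 49 in the members), membership itself carried counting error. When the UMIs of each barcode were split at random into 2 equal parts, the 500 highest by 1 part and the 500 highest by the other shared 241 barcodes. The 500 chosen on 1 part had a median 6-gene share of 1.40% there and of 1.199% in the part that had not been used, where the other barcodes had 0.489%. The higher keratin level was thus present in UMIs that had no part in the ranking, at a smaller size.

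Among the 6 genes Krt15 had the largest ratio between the sets, and Krt14 the largest difference in CPM. Krt14 was at 4452 CPM (counts per gene scaled to a common total of UMIs) in the members and 1478 in the rest, Krt17 at 4313 and 1896, Krt15 at 3146 and 673, and Krt5 at 2103 and 956. Col17a1 was at 179 and 120 CPM and Dsg3 at 145 and 74.2 CPM, so the keratins made up almost all of the share. Krt14 had the most UMIs of the 4 keratins in 190 members, Krt17 in 176, Krt15 in 124 and Krt5 in 10. All 4 keratins were detected in 406 members and all 6 genes in 65. These values describe the choice.

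Each gene was also measured in the 500 barcodes ranked by the other 5 genes. All 6 were still higher than in the other barcodes. Krt5 was at 1807 against 974 CPM, a log2 ratio of 0.89 (0.84 to 0.94), and Dsg3 at 133 against 74.99 CPM, a log2 ratio of 0.82 (0.64 to 1.01). The log2 ratio was 0.62 for Krt14, 0.52 for Krt15, 0.39 for Krt17 and 0.37 for Col17a1. The ranking without Dsg3 kept 489 of the members and that without Krt14 kept 311.

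The label basal was only partly borne out by basal genes that the rule had not used. Of 16 such genes, 7 were higher and 9 lower in the members than in the rest, and their median log2 ratio was -0.05, against -0.10 for all 6597 genes tested. Their summed level was higher in the members (3394 against 2624 CPM), as was their median share per barcode (0.312% against 0.251%). Trp63, the p63 transcription factor of basal epithelium, was at 154 CPM in the members and 170 in the rest, a log2 ratio of -0.15 (-0.32 to 0.02). Itga6, the integrin alpha chain of hemidesmosomes, was lower (298 against 413 CPM, -0.47, -0.59 to -0.35). Itgb1, the beta chain of many matrix integrins, was level at 533 and 534 CPM. The 3 genes of the list at least 2-fold higher were Krt6a, the galectin Lgals7 (273 against 92.3 CPM, 1.55, 1.43 to 1.70) and Sfn, the 14-3-3 protein of stratified epithelium (737 against 330 CPM, 1.16, 1.08 to 1.24). The set is therefore called keratin-high here and not basal.

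Luminal duct genes were not lower as a group in the members, with 10 of 14 higher. Krt8 was at 285 CPM in the members and 232 in the rest, Krt7 at 1304 and 1039 and Krt18 at 861 and 941, and the 14 measured luminal genes had a median log2 ratio of 0.14. The markers of 2 populations that the study calls stem/progenitor I (Cd164, Sox9, Cd24a) and II (Itgb1, Cd44, Trp63) had median log2 ratios of 0.03 and 0.00. Of 15 myoepithelial genes 5 were at 0 among the 1961888 UMIs of the members, where a count of 0 allows up to 1.53 CPM, and 5 more (Myh11, Cnn1, Tagln, Mylk and Lmod1) had 1 UMI each. The genes at 0 (Acta2, Actg2, Myl9, Oxtr and Synpo2) showed no difference from the rest at this depth. All but the smooth muscle actin Acta2 were below that limit in the rest too, and Acta2 had its 72 UMIs of the rest in 15 barcodes (0.169%), where 0 of 500 members allows up to 0.735%. The list as a whole was not lower, with a summed level of 690 CPM in the members and 543 in the rest, carried by genes that other cells also use such as Tpm2 (261 against 170 CPM) and Csrp1 (169.7 against 148 CPM). Of 16 immune, 10 endothelial and 10 fibroblast markers, 14, 9 and 8 were at 0 in the members, and the summed levels were 4.08, 1.02 and 3.06 CPM, against 2.96, 1.91 and 10.0 CPM in the rest.

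Against the rest, the leading genes outside the rule were keratins of stressed epithelium, genes of suprabasal keratinocytes, genes of sterol synthesis and chemokines. A gene was counted as higher or lower at a 2-fold difference (a log2 ratio of 1 on the scale of CPM + 1), with at least 200 UMIs over both sets and 20 CPM in the higher one. By this count 67 of 6597 genes were higher in the members (1.02% of those tested) and 99 were lower (1.5%).

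Krt16 and Krt6a, which epithelia make when injured or quickly dividing, stood first among the keratins. Krt16 was at 83.1 CPM in the members and 5.77 in the rest, a log2 ratio of 3.63 (3.54 to 4.16), and Krt6a at 438 and 91.7 CPM, a log2 ratio of 2.24 (2.14 to 2.37). Neither marked all members: at full depth 55 members (11.0%) had a UMI of Krt16, against 1.33% of the rest, and 165 (33.0%) had one of Krt6a, against 12.3%. Among the 500 barcodes with the lowest 6-gene share, 2 had a UMI of Krt16 and 52 (10.4%) one of Krt6a, at a median depth of 3325 UMIs. Krt14, Krt16 and Krt17, and likewise Krt5 and Krt6a, are similar in sequence, and how reads shared by such copies were counted is not known here, so these levels are uncertain to that extent.

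Of 14 measured genes of suprabasal differentiation and cornification, 6 of the 9 that passed the minimum were at least 2-fold higher and none was 2-fold lower, with a median log2 ratio of 0.92. Krtdap was at 231 CPM in the members and 28.3 in the rest (2.98, 2.86 to 3.19). It had a UMI in 94 members (18.8%) and in 4.00% of the rest. Dmkn, a secreted keratinocyte protein, was at 208 and 76.0 CPM (1.44, 1.30 to 1.61), and Sprr2a3 and Sprr1b, precursors of the cornified envelope, were at 283 and 108 CPM (1.38, 1.26 to 1.52) and 151 and 58.2 CPM (1.36, 1.19 to 1.55). Sprr1a, the most abundant gene of the list, went the other way (1745 against 2486 CPM, -0.51, -0.56 to -0.46). The summed level of the list was therefore the same in both sets, at 2923 CPM each, although its median gene was higher in the members. The median share of the list per barcode was lower in the members (0.178% against 0.215%). Late genes of cornification were near 0: Flg, Krt1 and Cnfn had no UMI in the members, and loricrin (Lor) was at 3.57 CPM.

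Genes of sterol synthesis, the pathway to cholesterol, ran in a single direction. This list was written after its leading genes had been seen, and so its direction follows in part from that choice. All 23 measured genes were higher in the members, 10 of the 17 that passed the minimum by at least 2-fold, with a median log2 ratio of 1.19. Fdps, which makes farnesyl diphosphate, was at 182 CPM against 50.6 (1.83, 1.68 to 2.02). Idi1, the isomerase before it, was at 181 against 54.5 CPM (1.71, 1.56 to 1.90), Sqle, which epoxidises squalene, at 55.0 against 17.2 CPM (1.63, 1.37 to 1.98), and the lanosterol demethylase Cyp51 at 174 against 62.4 CPM (1.46, 1.31 to 1.64). Abca1, which exports cholesterol from the cell, was among the lowest genes (12.7 against 64.2 CPM, -2.25, -2.96 to -1.77).

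Secreted signals of epithelium were mixed. Of 11 measured cytokines and chemokines that passed the minimum 4 were at least 2-fold higher, and the median log2 ratio of the 18 measured was 0.31. The neutrophil chemokines Cxcl2 (199 against 63.9 CPM, 1.63, 1.48 to 1.80), Cxcl3 (128 against 42.3 CPM, 1.58, 1.40 to 1.79) and Cxcl5 (208 against 81.1 CPM, 1.35, 1.21 to 1.51) and the epithelial cytokine Tslp (134 against 44.4 CPM, 1.57, 1.40 to 1.79) were higher. Cxcl2 came from few barcodes, since 23 members (4.60%) had a UMI of it, against 3.43% of the rest. Cxcl3 had a UMI in 28 members (5.60%) and 1.61% of the rest, and 229 of its 251 UMIs in the members came from 17 members of a single cluster, the same cluster 8 that is described further on. When the other barcodes were weighted to the members' clusters its log2 ratio was 0.52. Calcium-binding S100 and annexin genes were higher in 10 of 12 cases with a median log2 ratio of 0.68. S100a6 was at 7965 against 4200 CPM (0.92, 0.90 to 0.95) and Anxa1 at 4750 against 2812 CPM (0.76, 0.73 to 0.79).

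Other leading genes were Tm4sf1, a membrane protein (161 against 30.8 CPM, 2.34, 2.19 to 2.56), the serine protease Tmprss11b (54.5 against 10.4 CPM, 2.29, 2.07 to 2.71) and the protease inhibitor Serpinb2 (157 against 37.3 CPM, 2.05, 1.89 to 2.26). Tm4sf1 came from few barcodes, 47 members (9.40%) and 5.21% of the rest. Clusters 6 and 8, described further on, held 123 and 150 of its 315 UMIs in the members. Sptssb, a subunit of the enzyme that starts sphingolipid synthesis, was at 63.7 against 14.5 CPM (2.06, 1.84 to 2.42), the apolipoprotein gene Apoe at 137 against 45.5 CPM (1.57, 1.40 to 1.78) and the kinetochore gene Cenpm at 80.0 against 22.8 CPM (1.77, 1.56 to 2.06). With at least 2500 genes per barcode, the limit that the study names, and 500 of the 848 barcodes left as members, Tmprss11b was at 0.35, Sptssb at 0.11 and Cenpm at -0.25. With the same fraction ranked under that limit (45 members) they were at 1.27, 1.65 and 1.79. Fgfbp1, a carrier of fibroblast growth factors, was at 849 against 393 CPM (1.11, 1.04 to 1.18), and the binding protein Igfbp3 at 65.7 against 23.9 CPM (1.42, 1.18 to 1.73). The FGF and insulin-like growth factor list as a whole had 8 of 16 measured genes higher and 8 lower, with a median log2 ratio of 0.04. Of its 12 genes that passed the minimum 2 were at least 2-fold higher and 1 lower.

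Duct and secretory genes were among the lowest, though not as a rule. All 11 measured genes of the granular and striated duct list were lower, 2 of the 3 that passed the minimum by at least 2-fold, with a median log2 ratio of -1.23. Most of its genes were low, and with a pseudocount of 10 CPM its median lay 0.16 below that of all genes. Fxyd2, a regulator of the sodium pump, was at 42.8 CPM against 204 (-2.22, -2.58 to -1.94), and Ptprd, a receptor phosphatase, at 109 against 314 CPM (-1.52, -1.73 to -1.33). Chrm3, the muscarinic receptor by which nerves drive saliva secretion, was the lowest of the 15 genes named at the low end of this comparison (18.9 against 109 CPM, -2.47, -3.04 to -2.06). It had a UMI in 27 members (5.40%) and in 20.5% of the rest. Ano1, the chloride channel of secretory cells, was at 61.2 against 97.8 CPM (-0.67, -0.95 to -0.41). Chrm3 and Ano1 are of the pro-acinar list, of which 6 of 8 measured genes were lower and 2 higher, with 1 of the 5 that passed the minimum at least 2-fold lower. The higher ones were the adhesion molecule Alcam (393 against 283 CPM, 0.47, 0.36 to 0.58) and the water channel Aqp5 (19.9 against 12.2 CPM, 0.67, 0.20 to 1.19).

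Antimicrobial genes went both ways. Of 17 measured 6 were higher and 11 lower, 1 of the 11 that passed the minimum at least 2-fold higher and 3 lower, and their median log2 ratio of -0.16 was close to the -0.10 of all genes. S100a9, a subunit of calprotectin, was at 31.6 against 7.56 CPM (1.93, 1.64 to 2.47). Lcn2, an iron-scavenging defence protein, was at 996 CPM in the members and 2795 in the rest (-1.49, -1.55 to -1.42), and its log2 ratio was -0.50, under the 2-fold call, when Krt14 was left out of the ranking. Lactoferrin (Ltf) was at 11.7 against 57.4 CPM (-2.20, -2.95 to -1.70). It came from few barcodes, 13 members (2.60%) and 3.37% of the rest, 1401 of its 1862 UMIs in the rest lay in a single cluster (cluster 8 of those described further on), and without Krt14 in the ranking its log2 ratio was -0.47. Orm3, an acute phase protein of the orosomucoid family, was at 28.0 against 126 CPM (-2.12, -2.57 to -1.78). Psca, a lipid-anchored surface protein, was at 29.6 against 98.8 CPM (-1.71, -2.14 to -1.37), but it was found in 13 members and 111 others only, a larger share of the members (2.60%) than of the rest (1.25%), so its order is not read. Clu, a secreted chaperone, was at 55.6 against 149 CPM (-1.41, -1.71 to -1.15). The other named genes below the rest were Ppargc1a, a coactivator of mitochondrial genes (23.4 against 110 CPM, -2.18), Dach1 (17.8 against 78.7 CPM, -2.08), Chchd10 (15.3 against 55.1 CPM, -1.78), Celf2 (17.3 against 55.4 CPM, -1.62), Arrdc3 (24.98 against 71.7 CPM, -1.49) and Deptor, an inhibitor of mTOR (37.7 against 103 CPM, -1.42).

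**Figure D2:**
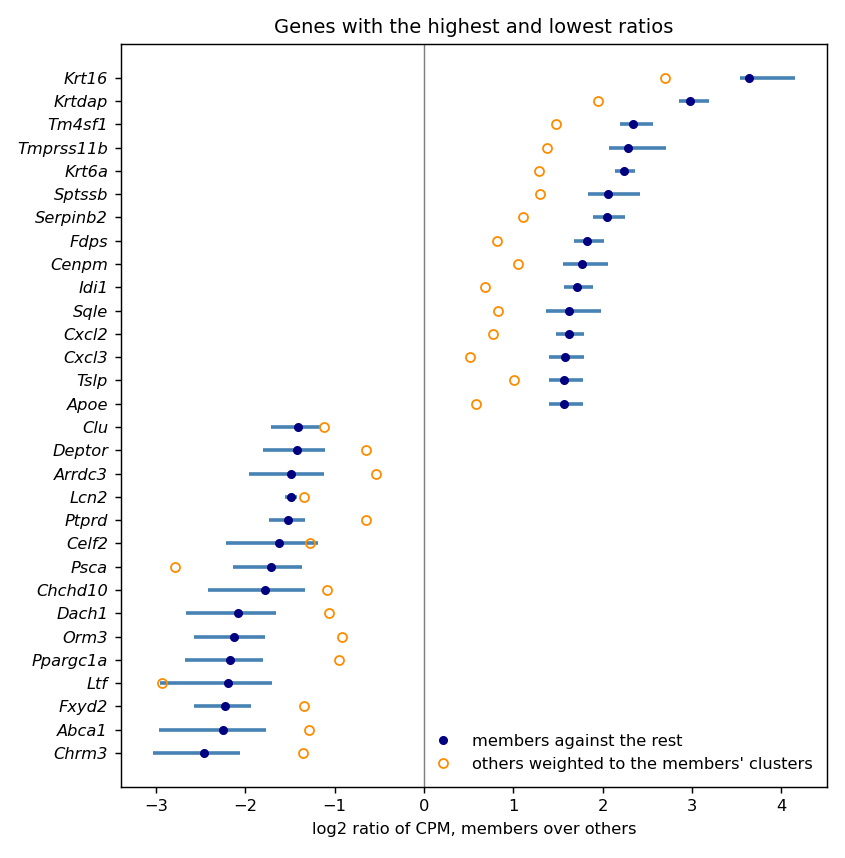
Log2 ratios of CPM for the 15 highest and 15 lowest named genes, members over the rest (filled, with 95% intervals for counting error) and over the other barcodes weighted to the members' cluster shares (open). The open points lie on the same side of 0 as the filled ones for all 30 genes and nearer to 0 for 28 of them, Psca and Ltf being farther.

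Not every named call held under each alternative. With Krt14 left out of the ranking 6 of the 30 named genes were under 2-fold (Apoe, Ltf, Chchd10, Celf2, Ptprd and Lcn2). With at least 2500 genes per barcode and still 500 members 6 were (Tmprss11b, Krt6a at 0.91, Sptssb, Cenpm, Celf2 and Arrdc3), and with Krt17 left out of the ranking 4 were (Cxcl2 at 0.49, Cxcl3 at 0.56, Tslp and Ltf). Weighting to the members' clusters left 11 under 2-fold. Krt16, Krtdap, Tm4sf1, Serpinb2, Chrm3, Abca1, Fxyd2, Dach1 and Clu stayed above it in all 26 alternatives.

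Transcription factors and receptors went in both directions. Of 26 factors of stratified epithelium 17 were higher, with a median log2 ratio of 0.03. Klf4, a factor of keratinocyte differentiation (149 against 79.4 CPM, 0.90, 0.73 to 1.08), and Barx2 (25.996 against 6.05 CPM, 1.94, 1.63 to 2.56) were higher. Foxc1 (99.9 against 177 CPM, -0.82, -1.04 to -0.62) and Runx1 (463 against 691 CPM, -0.57, -0.67 to -0.48) were lower. Notch1 was at 129 and 124.9 CPM and Egfr, the receptor for the EGF of the medium, at 267 and 271 CPM. Errfi1, a feedback inhibitor of that receptor, was at 222 against 508 CPM (-1.19, -1.33 to -1.06), and the receptor Igf1r at 88.2 against 137 CPM (-0.63, -0.86 to -0.42). Of 11 desmosome genes, 9 were higher, led by Dsp (508 against 368 CPM, 0.46, 0.37 to 0.56), with a median log2 ratio of 0.19. Of 16 hemidesmosome and laminin genes 10 were lower, with a median of -0.07, which was close to all genes tested, of which 62.3% were lower.

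**Figure D3:**
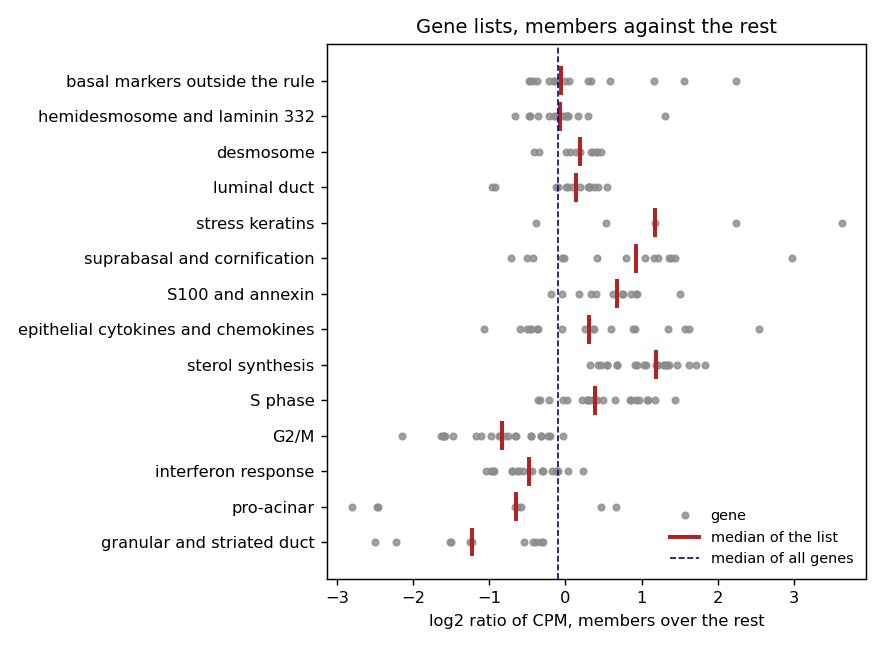
Log2 ratios of CPM, members over the rest, for the genes of 14 lists (points), with the median of each list (red bar) and of all genes tested (dashed, -0.10). Stress keratins, sterol synthesis and the suprabasal list lie to the right and the granular and striated duct list to the left, whereas basal markers outside the rule scatter around the dashed line.

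Clustering without the 6 genes placed the members in 12 of 13 clusters. Clusters were rebuilt from the matrix and, except for a cycling-like one, did not meet the marker rule for a name, so they are given by number and leading genes. Some had several markers of a class at least 2-fold up. Cluster 8 had 9 suprabasal and 7 luminal ones, cluster 9 had 9 granular and striated duct and 7 luminal ones, and cluster 10 had 9 myoepithelial ones. Cluster 6, led by Meg3, Apoc1, Apoe, Idi1 and Fdps, held 174 members, 34.8% of the set and 19.5% (16.9% to 22.2%) of its 894 barcodes. Cluster 8, led by Psca, Sprr2f, Krt6b and Krt13, held 72 members, 11.4% (8.99% to 14.1%) of its 634 barcodes. Cluster 3 held 69 members, cluster 1 held 57, cluster 7 held 50, cluster 4 held 40 and cluster 10 held 20. Only 1 member lay among the 1265 barcodes of cluster 2, led by the acute phase genes Orm3 and Orm1, and none among the 289 of cluster 9, led by the kallikrein gene Klk1b11. A count of 0 among 289 allows a share of up to 1.27%.

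**Figure D4:**
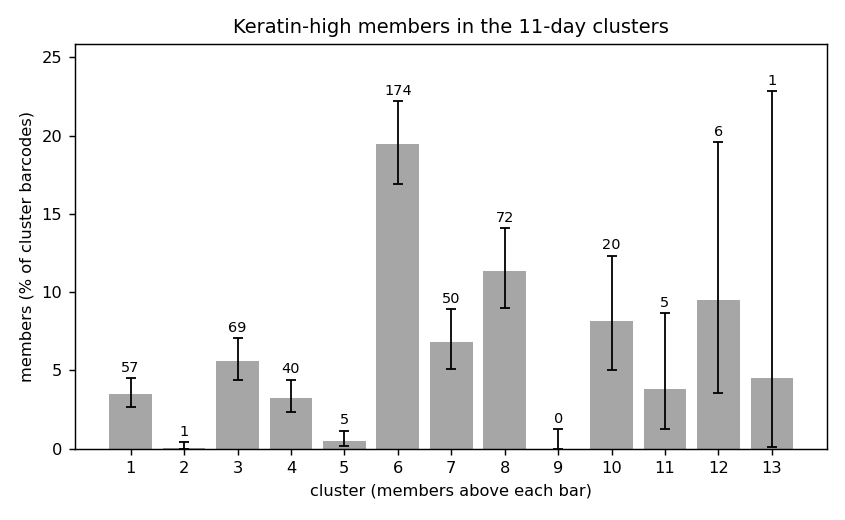
Share of the barcodes of each 11-day cluster that were members (bars, percent, with 95% Clopper-Pearson intervals) and the number of members (above each bar). Cluster 6 has the highest share and clusters 2, 5 and 9 the lowest, while the intervals of the small clusters 12 and 13 are wide and reach that of cluster 6.

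The rule genes themselves were mixed differently in the members of each cluster. Members in cluster 6 had the highest Krt14 (5404 CPM), and those in cluster 4 the highest Krt15 (5531 CPM) and the lowest Krt14 (2241 CPM). Members in cluster 8 had 238 CPM of Dsg3 and 36.0 CPM of Col17a1, against 150.7 to 294 CPM of Col17a1 in the members of clusters 1, 3, 4, 6, 7 and 10.

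Much of the difference from the rest went with this uneven spread. When the other barcodes were weighted so that each cluster had the same share as among the members, 19 genes were at least 2-fold higher and 22 lower, in place of 67 and 99. Krt16 kept a log2 ratio of 2.70, Krtdap of 1.95 and Lcn2 of -1.34, whereas Fdps fell to 0.82 and Apoe to 0.58. The clustering left out the 6 rule genes alone, and Apoe, Idi1 and Fdps were among the leading genes of cluster 6. Weighting by clusters can therefore shrink the ratios of such genes by construction. The medians of the stress keratin, suprabasal and S100 lists then lay 0.21, 0.32 and 0.35 above that of all genes, in place of 1.28, 1.03 and 0.78. That of the sterol list lay 0.59 above it, in place of 1.29. The granular and striated duct list lay 0.39 below it in place of 1.12, and the pro-acinar list 0.37 in place of 0.54.

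Within clusters the named genes differed in how general they were. In each of the 7 clusters with at least 20 members Lcn2 was lower in the members than in the other barcodes of the cluster, with log2 ratios from -1.60 to -0.91 and every interval below 0. Krtdap was higher in 7 of 7, with the interval above 0 in 4, and Fdps likewise in 7 of 7 and 4. Clusters 6, 8 and 10 held 131, 220 and 84 of the 453 Krtdap UMIs of the members, and clusters 1, 3 and 4 held 2, 5 and 1. Krt16 was higher in 4 of 7, and 107 of its 163 UMIs in the members came from cluster 8, where it was at 296 CPM in the members and 32.8 in the others. In cluster 8 lay also 527 of the 859 Krt6a UMIs, 244 of the 347 of Krt13 and 351 of the 391 of Cxcl2, the last in 12 members. Without that cluster the log2 ratio of Cxcl2 was 0.31. Cluster 6 held 232 of the 269 Apoe UMIs, and without it the log2 ratio of Apoe was -0.03. Trp63 had log2 ratios from -0.66 to 0.67 in the 7 clusters, with 1 interval above 0 and none below.

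Sterol genes were high in cluster 6 as a whole. Their summed level there was 2254 CPM in the members and 1595 in the others, and in cluster 8 it was 1600 and 797 CPM. In cluster 10 it was 1131 and 879 CPM. In cluster 7 it was 497 and 500 CPM, and in clusters 1, 3 and 4 it was 600 to 679 CPM in the members and 481 to 491 CPM in the others.

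The members were next set against the 500 barcodes of the same library ranked by 16 luminal duct genes, with the 22 barcodes in both sets left out. Wfdc2 alone made up 18286 of the 26762 CPM of the luminal list in the 500, where Krt8 was at 571 CPM. Cluster 8 held 163 of the 500, cluster 4 held 140 and cluster 9 held 131. The set was thus ranked mostly by Wfdc2 and is not taken as a set of luminal duct cells. Of 3550 genes tested 67 (1.89%) were at least 2-fold higher in the members and 112 (3.15%) lower. All 16 basal genes outside the rule were higher in the members, with a median log2 ratio of 0.85 against -0.06 for all genes. Lgals7 (282 against 35.6 CPM, 2.95), Krtdap (239 against 12.2 CPM, 4.19), Sprr1b (154 against 17.6 CPM, 3.06) and Sostdc1, a secreted inhibitor of Wnt and BMP signals (226 against 21.7 CPM, 3.32), were among the highest. Trp63 was at 160.1 CPM in the members and 43.3 in the luminal-ranked barcodes. Ltf (11.2 against 479 CPM, -5.30), the cystatin Cst6 (8.54 against 127 CPM, -3.75) and Lcn2 (966 against 9098 CPM, -3.23) were among the lowest. Krt5 and Krt17 were also present in the luminal-ranked set, at 846 and 1619 CPM. At full depth 34.6% of all its barcodes had a UMI of Krt6a and 33.0% of the members did, at median depths of 4216 and 3582 UMIs. By level Krt6a was at 240 CPM in the whole luminal-ranked set and at 438 CPM in all members. Sprr2f, with 117 against 6.32 CPM the second highest, rested on 8 members of cluster 8, which held 218 of its UMIs.

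A second set of 500 was ranked by 15 myoepithelial genes and shared 44 barcodes with the members, which were left out. It was not a set of myoepithelial cells by its markers, since Acta2 was at 39.6 CPM and Myh11 and Tagln at 3.09 CPM each, and Sparc, Nrg1, Csrp1 and Tpm2 made up most of the share. Of 2869 genes tested 29 (1.01%) were at least 2-fold higher in the members and 24 (0.837%) lower. Krt13, a keratin of wet stratified epithelium (190 against 6.84 CPM, 4.61, 3.90 to 5.87), Krt6a (450.1 against 26.7 CPM, 4.03, 3.61 to 4.58) and the fatty acid carrier Fabp5 (5058 against 1175 CPM, 2.11, 2.03 to 2.18) were higher. The matrix protein Sparc (83.1 against 459 CPM, -2.45), the neuregulin gene Nrg1 (84.2 against 420.0 CPM, -2.31) and Csrp1 (137 against 527 CPM, -1.93) had been used to rank that set, so their low level describes it. Outside that list Wfdc18 (227 against 969 CPM, -2.09) and the protease inhibitor Timp3 (44.3 against 151 CPM, -1.75) were lower in the members. Of the 16 basal genes outside the rule 12 were lower in the members than in this set, with a median log2 ratio of -0.34, and Trp63 was at 152 CPM in the members and 241 in the set.

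Within the members the balance of the keratins varied widely. Krt15 made up from 0% to 98.0% of the UMIs of the 4 keratins, with a median of 15.7%. The members richest in Krt15 (33.3% or more) and an equal number of the poorest (4.00% or less) had median depths of 3590 and 3670 UMIs. Of 783 genes tested 2 (0.255%) were at least 2-fold higher in the rich members and 7 (0.894%) lower. These calls were not stable, since with 50 members at either end 6 genes were higher and 0 lower, and with at least 5000 UMIs 14 and 17. Higher were Cbr2, a carbonyl reductase (645 against 266 CPM, 1.27, 0.98 to 1.58), and Tfcp2l1, a transcription factor of duct epithelium (1002 against 463 CPM, 1.11, 0.89 to 1.34). Lower were the chemokines Cxcl1 (145 against 494 CPM, -1.76, -2.16 to -1.38), Cxcl5 (131 against 426 CPM, -1.69, -2.12 to -1.30) and Cxcl3 (145 against 311 CPM, -1.09), Wfdc18 (117 against 397 CPM, -1.76, -2.21 to -1.34), Krtdap (131 against 384 CPM, -1.54, -1.98 to -1.14), Igfbp7 (121 against 336 CPM, -1.46) and Cald1, an actin-binding protein (127 against 311 CPM, -1.28). The sterol list was level between them, with a median log2 ratio of -0.15 against -0.02 for all genes.

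Genes of G2/M and of S phase went in opposite directions. After thinning to 2000 UMIs, Mki67 or Top2a, genes of cycling cells, had a UMI in 8 members (1.60%, 0.693% to 3.13%) and in 1.98% (1.70% to 2.30%) of the rest. All 22 genes of the G2/M list were lower in the members, with a median log2 ratio of -0.83 and a summed level of 118 against 204 CPM, but 1 alone passed the minimum and it was not 2-fold lower. Relative to all genes the list turned to 0.27 with at least 5000 UMIs and to 0.98 with at least 2500 genes per barcode when 500 members were kept, which were then 500 of 1406 and of 848 barcodes, but it was at -2.50 and -2.68 when the same fraction was ranked (75 and 45 members). Of the 131 barcodes of the cycling-like cluster 11, which had 22 of 22 cycling markers at least 2-fold up, 5 were members. Genes of S phase went the other way, with 18 of 22 higher, a median log2 ratio of 0.39 and a summed level of 432 against 328 CPM, but 8 of the 22 passed the minimum and none of these was 2-fold higher. The replication genes Mcm3, Mcm6 or Rrm2, chosen after their values were seen, had a UMI in 52 members (10.4%, 7.87% to 13.4%) and in 5.08% (4.63% to 5.55%) of the rest after thinning, and in 14.4% and 8.62% before it. Of the 500 barcodes lowest in the 6 genes, 18 had one after thinning.

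Across all eligible barcodes, put into 10 equal groups in the order of the 6-gene share, the levels followed that share in different ways. From the lowest to the highest group Lcn2 went from 6550 to 1139 CPM and Chrm3 from 275 to 25.4 CPM, each lower in every group than in the one before. The summed sterol genes went from 468 to 1274 CPM, higher in every group than in the one before. Krt6a stayed between 59.4 and 140 CPM in the first 9 groups and was at 320 CPM in the last, and Krt16 between 1.76 and 10.4 CPM and then at 51.8 CPM. Trp63 was lowest in the first group (116 CPM), highest in the seventh (203 CPM) and at 164 CPM in the last. The members were the upper part of the last group, so its values restate in part the comparison with the rest.

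**Figure D5:**
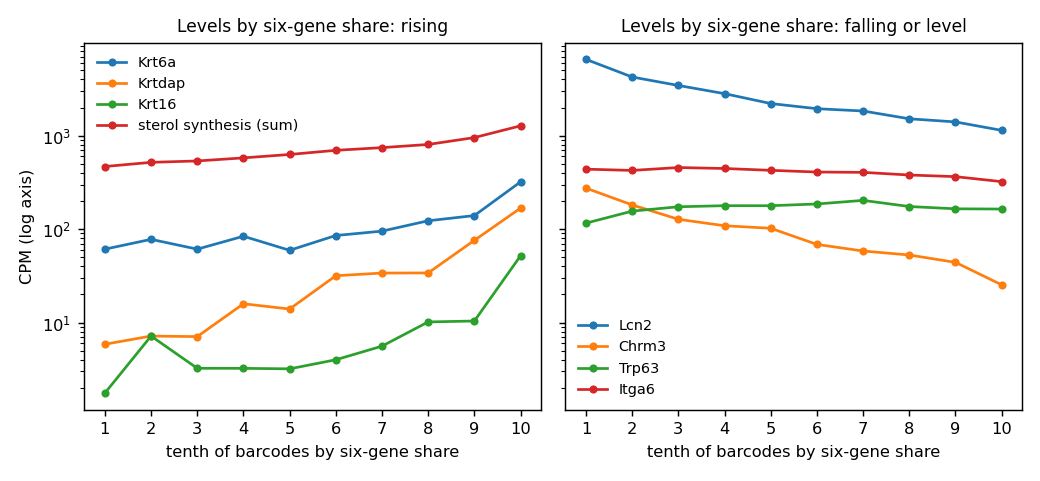
CPM (log axis) in 10 equal groups of the eligible 11-day barcodes ordered by the 6-gene share, for genes and a summed list that rise (left) and genes that fall or stay level (right). Krt6a and Krt16 rise mainly in the last group, which holds the members, while Lcn2, Chrm3 and the sterol genes change through all groups.

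The share that only the top of the 11-day library reached was common in the 7-day libraries. Under the same filters it was met by 53.1% (50.8% to 55.3%) of 1947 barcodes of non-irradiated 7-day mSGOs, by 62.9% (61.2% to 64.7%) of 2965 after photons and by 64.5% (62.7% to 66.2%) of 2892 after protons, against 5.34% at 11 days. With at least 5000 UMIs the order of the 7-day libraries turned, with 50.7% without irradiation, 44.4% after photons and 44.4% after protons. In fresh tissue none of 1169 barcodes reached it, which allows a share of up to 0.315%, and its highest 6-gene share was 0.331%. Many 7-day barcodes held little nuclear RNA, with a median Malat1 share of 0.115% to 0.189% against 3.18% in the 11-day library. Among barcodes with at least 1% of Malat1 the shares were 34.1%, 36.8% and 37.1%, and 5.14% at 11 days. Culture time, batch of animals, run and counting software all changed together between 7 and 11 days and cannot be told apart.

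Ranking the same fraction (5.34%) of barcodes in the 7-day libraries gave sets of another composition. Krt14 made up 46.6% to 51.7% of the 6-gene UMIs in the highest barcodes there, against 31.1% in the members, and Krt15 7.75% to 11.7% against 21.9%. Of the 15 genes highest in the members, 8 were also higher in the top barcodes of non-irradiated 7-day mSGOs, 9 after photons and 8 after protons, with median log2 ratios of 0.04, 0.39 and 0.10. Intervals clear of 0 were counted for 6, 7 and 4 of the 15. The sterol list had median log2 ratios of 0.27, 0.19 and -0.02 in the same order, and of -0.13, 0.14 and -0.02 among barcodes with at least 1% of Malat1, so its direction without irradiation turned. The 15 genes lowest in the members could be compared for 9 or 10 genes, of which 8 of 9 were lower in the non-irradiated top barcodes, 2 of 10 after photons and 4 of 10 after protons. Intervals clear of 0 were counted for 2 of 9, 0 of 10 and 1 of 10. The counts of direction changed among barcodes with at least 1% of Malat1, where the lowest genes were lower for 6 of 7 without irradiation and 6 of 10 after photons and after protons, and the highest genes were higher for 11 of 15 without irradiation (median 0.49), 9 after photons and 8 after protons. The share of all genes in each direction is not given for the 7-day sets, so the counts are not read as a result about these genes.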

How the data were processed

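Droplet single-cell RNA was measured in 5 libraries of 7151 to 19189 barcodes and 16908611 to 40166701 UMIs, 1 library per group. The authors deposited raw UMI counts per gene and barcode, with no barcode under 500 UMIs. The file headers name software version 7.0.0 for the 11-day library and 3.0.1 for the others, the submitters' processing notes name Cell Ranger 5 and mm10, and the paper's methods name another build (GRCm39). The gene tables hold 32285 genes at 11 days and 31053 otherwise. Whether intronic reads were counted is not given in the sources used here, and it can change levels between libraries.

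Barcodes with at least 2000 UMIs and at most 5% mitochondrial UMIs were ranked. The stated filter of the study (at least 2500 genes) would leave 848 of them. CPM were computed from UMIs summed over a whole set. Ratios were taken on the log2 scale after adding 1 CPM, so that they understate low genes, and their intervals are exact binomial intervals from the counts without it. Because the 11-day group is 1 library, no test was run. Shares have Clopper-Pearson intervals. UMIs counted by droplet are taken as independent in all intervals, and a count of 0 was given the limit of 3 counts. For shares of barcodes at equal depth, each was thinned to 2000 UMIs. Clusters were found with scanpy 1.11.5 and leidenalg 0.10.2 (2000 variable genes without the 6 rule genes, 30 components, 15 neighbours, resolution 0.8). Scripts used numpy 2.4.6, scipy 1.17.1 and pandas 2.3.3 and were tested on simulated data.

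Named genes were the 15 highest and 15 lowest against the rest with at least 50 CPM in the higher set, the 8 highest and 8 lowest in the other comparisons, and up to 4 per gene list, of which those that carry a result are printed. The members and lists were chosen with earlier results of these data known. Alternatives changed the UMI, gene and mitochondrial limits, the number of members, doublets, thinning, weighting, scaling, pseudocount, filter, rule genes, cluster settings and Malat1 share. Promoter sequences came from RefSeq, where 3 of 9 genes asked for had an entry that was used. Between 33 and 69 barcode sequences of the 11-day library also occurred in each other library, at most 5 of them members. Some items are not reported here.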

Additional observations from a re-analysis of the deposited data

How the results depend on the processing

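With 1 library per group, the spread between cultures or animals is unknown, and depth limits genes under about 20 CPM. No paired analysis was possible because each group holds a single library and no result comes from a test. Settings that weight or leave out clusters, split the UMIs or keep the ranked fraction were chosen after seeing the data. The cause of a change was not tested.

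The number of genes at least 2-fold higher, 67 as reported, was counted anew under each setting, and was 28 with at least 5000 UMIs, 43 with the 1000 highest, 43 with a pseudocount of 10 CPM, 133 with at least 50 UMIs and no CPM minimum, 35 with at least 2500 genes, 38 with 2500 genes and the same fraction ranked, and 19 with the others weighted to the members' cluster shares. The number lower, 99 as reported, was 51 with 5000 UMIs, 191 with the 250 highest, 45 with the 1000 highest, 44 with a pseudocount of 10 CPM, 542 with no CPM minimum, 37 with 2500 genes, 56 with Krt14 left out of the ranking, 397 and 257 with the same fraction ranked at 5000 UMIs and 2500 genes, and 22 with weighting. At 5000 UMIs 1406 barcodes were eligible and at 2500 genes 848, so 500 members were a larger fraction there, and the same fraction was 75 and 45 barcodes. Of the planned lists with at least 3 measured genes outside the rule, 6 had a median at least 0.5 from that of all genes. The number was 3 with a pseudocount of 10 CPM, 12 with 5000 UMIs and the same fraction, and 1 with weighting, which was the interferon response list (-0.54) and none of the 6.

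Against the luminal-ranked set the higher count went from 67 to 26 after thinning and 43 at 5000 UMIs, and the lower count from 112 to 43 after thinning. Against the myoepithelial-ranked set it went from 29 to 8 and 4, and from 24 to 10 and 13. For the Krt15 share it went from 2 to 6 with 50 members at either end and 14 at 5000 UMIs, and from 7 to 0 and 17. The cluster with most members held 40.4% of them at resolution 0.4, where 6 clusters held any, 25% at resolution 1.2, and 19.0% with cycle and mitochondrial genes left out. The share at or above the cut, at 5000 UMIs, after thinning and with 1% of Malat1, was 50.7%, 47.8% and 34.1% in non-irradiated 7-day mSGOs, 44.4%, 58.7% and 36.8% after photons and 44.4%, 59.4% and 37.1% after protons. At 11 days it was 7.11% at 5000 UMIs. Mki67 or Top2a was found in 2.93% of the rest without thinning and 1.21% at 1000 UMIs.

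Relative to all genes, the median of the stress keratins turned to -0.11 with 2500 genes, and that of the G2/M list to 0.27 with 5000 UMIs and 0.98 with 2500 genes, though with the same fraction ranked it was at -2.50 and -2.68. Cenpm turned to -0.25 with 2500 genes (1.79 with the same fraction), Apoe to -0.026 without cluster 6 and Psca to 0.029 without cluster 8. These and no other named genes changed sign. Of 1009 list medians relative to all genes, 129 changed sign, 126 of them in lists that lay less than 0.5 from all genes to begin with, among them the luminal (to -0.12 with 2500 genes), basal (to -0.20 with 5000 UMIs and the same fraction) and cytokine lists (to -0.20 with Krt17 left out of the ranking).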
